A study of Coryphaena hippurus with 32 samples.

Results

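Mahi-mahi (Coryphaena hippurus), an open-ocean predatory fish, were followed from 48 to 96 hours post fertilisation (hpf) while they developed in water holding slick oil from the Deepwater Horizon spill. The 6 RNA-seq libraries described here are the 3 labelled slick at 48 hpf (replicates 4, 5 and 6) and the 3 labelled slick at 96 hpf (replicates 7, 8 and 9), out of 32 samples in all. The other samples are slick oil at 24 hpf, and control seawater (0 g/l) and source oil (labelled mass) at 24, 48 and 96 hpf. Slick and source oil both carry the concentration label 1 g/l, and each was given as a high-energy water accommodated fraction, a suspension made by blending oil into seawater. Freshly fertilised embryos of captive broodstock caught off Miami entered 1 l beakers that were kept at 27 °C without a change of water, and each library is the RNA of 30 pooled whole embryos or larvae. The labels do not tell if the replicates are of different spawns; a p-value here measures only the spread between these samples, which may be technical. The 11 control samples of the 2 stages were counted as 6 libraries, because 5 pairs of them differed by less than the sampling noise and each such pair was taken as 1 sample. The counts of a pair were summed, so 5 of the 6 control libraries were deeper than any slick library of these stages. Numbers of genes called in control and in slick oil are therefore not at equal depth. Weathering, oil type and the hydrocarbon dose actually reached cannot be told apart between slick and source oil.

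In a marine fish of this kind the animal that hatches is an unfinished, yolk-fed larva, and the stretch of development covered here turns it into one that can see and catch prey. During that stretch photoreceptors build their outer segments and visual pigments, the exocrine pancreas and the gut lining start to make digestive enzymes, the jaw skeleton forms, neurons make synapses, and cells leave the division cycle as the yolk runs out. Crude oil holds polycyclic aromatic hydrocarbons, some of which activate the aryl hydrocarbon receptor, a transcription factor whose best-known target is the detoxifying enzyme gene CYP1A1.

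Reads were counted on human gene identifiers, so each symbol below stands for the mahi-mahi transcript that best matched a human gene, and fish paralogs of 1 human gene cannot be told apart. This bears most on opsins, crystallins, trypsins, myosins, CYP1 genes and hatching enzymes. The 6 slick libraries held 6361964 to 8884058 counts in all table lines and 1994364 to 2560303 in the lines kept, against 5425111 to 8884058 and 1823727 to 2560303 over all 32 samples. The 10 most abundant genes took 29.7% to 33.4% of the slick counts at 48 hpf and 19.8% to 20.6% at 96 hpf. Values are normalised counts, scaled to a common 2220813 effective counts per library, and libraries are given in the order of their replicate numbers. Markers of the tissues of a whole animal were present: the summed counts of 3 skeletal muscle genes were 149904 to 179844 in slick oil at 48 hpf, those of 3 cartilage genes 12791 to 15558, and those of 4 exocrine pancreas genes rose from 15.8 to 23.4 at 48 hpf to 13655 to 15787 at 96 hpf. Markers of some tissues were low: the heart genes MYL7 and TNNT2 together gave 17.8 to 36.0 in the slick libraries, and APOA4, the only intestine marker of 3 with a line, gave 10.3 to 38.9. In whole animals, fewer cells of a type and less RNA per cell cannot be told apart.

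The stage of the animals was the largest axis of variation: the first principal component of the 18 libraries at 48 and 96 hpf held 77.5% of the variance, with slick libraries at -45.8 to -44.7 at 48 hpf and at 41.1 to 44.2 at 96 hpf. The control libraries at 96 hpf lay at 46.9 to 47.4. The second component, 4.32% of the variance, held the slick libraries at 96 hpf between -23.1 and -20.7, the controls of that stage between 12.2 and 13.7 and source oil between 7.7 and 8.1. At 48 hpf all 9 libraries lay between -3.7 and 2.7.

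Of 8898 genes tested, 2730 (30.7%) rose and 2172 (24.4%) fell between 48 and 96 hpf in slick oil, at an adjusted p below 0.05 in edgeR's quasi-likelihood test, the rule for every call below. Changes of at least 2-fold made up 1258 of the rises and 507 of the falls (14.1% and 5.70% of the genes tested). The slick libraries of the 2 stages did not overlap for 5199 of the 8898 genes. In control, whose libraries were mostly deeper, 3109 genes (34.9%) rose and 2438 (27.4%) fell. The difference between the changes of slick oil and control was itself tested as an interaction: it was positive for 448 genes (5.03%) and negative for 588 (6.61%), with 112 and 110 of these at least 2-fold. All genes together had a median log2 change of 0.05 in slick oil, 0.05 in control and a median difference of -0.03. Of the 1036 genes with a called difference, slick and control libraries did not overlap at 96 hpf alone for 619 and at 48 hpf alone for 131. They were apart at both stages for 249 and at neither for 37. The call uses the same values, and the split over all genes tested was not counted, so these numbers only describe the called genes. That holds too for each gene named below because of a called difference, where libraries said to be apart add no support of their own. A direct test of slick oil against control within each stage, added after the data were seen, found 124 genes (1.39%) higher and 158 (1.78%) lower at 48 hpf, and 751 (8.44%) higher and 1066 (12%) lower at 96 hpf.

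The control programme was taken as the 1872 genes that changed at least 2-fold in control, 1382 of them rising and 490 falling. For 1156 rising genes (83.6%) and 405 falling genes (82.7%) the change in slick oil was not distinguished from that in control. This does not mean that the changes were equal, because the test has little power for genes near 0 at 48 hpf. The class held 14 of 19 phototransduction genes, although 16 of the 19 were lower in slick oil than in control at 96 hpf. Stalled genes, whose slick change was called different and reached less than 50% of the control log2 change, numbered 82 rising (5.93%) and 44 falling (8.98%). A further 116 rising and 30 falling genes were reduced but went at least 50% of the way, and 28 rising and 11 falling genes exceeded their control change. The stalled rising genes had a median log2 change of 0.38 in slick oil against 1.42 in control, and the stalled falling genes -0.33 against -1.39. There were also 89 genes called in opposite directions in slick oil and control, and 67 genes that moved at least 2-fold in slick oil, under 1.5-fold in control and with a called difference.

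**Figure D1:**
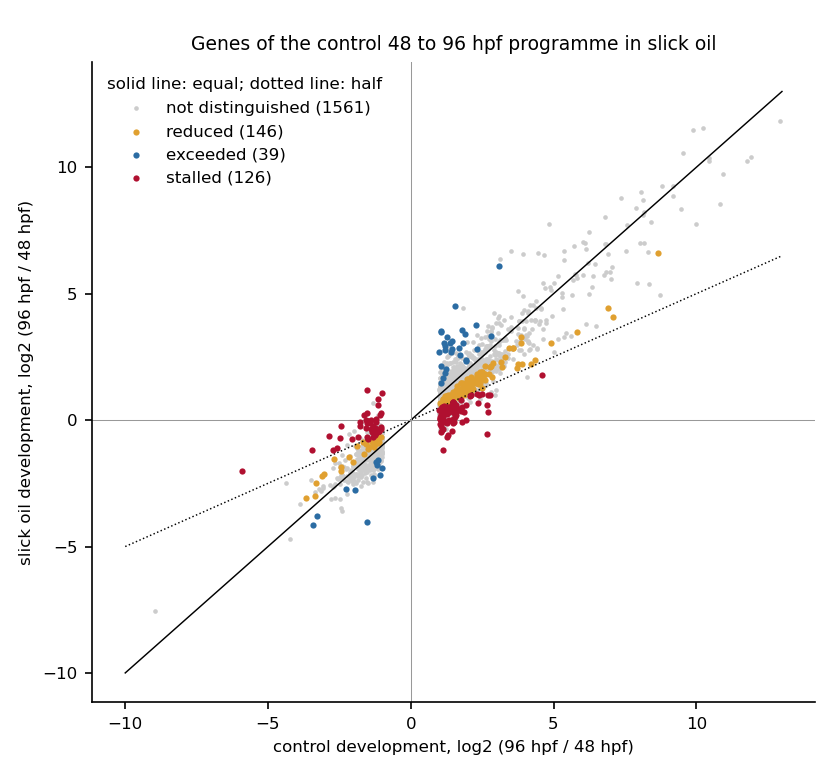
Each point is 1 of the 1872 genes that changed at least 2-fold in control, with its log2 change from 48 to 96 hpf in control on the horizontal axis and in slick oil on the vertical axis; the solid line marks equal change and the dotted line 50% of the control log2 change. Most points lie along the solid line (1561 not distinguished, grey). That class includes genes near 0 at 48 hpf, for which the test of the difference has little power. The 126 stalled genes lie between the dotted line and 0 or past it.

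Of 36 lists of genes for tissues and pathways, those that rose almost completely in slick oil were the digestive enzymes, gut absorption, phototransduction, the synapse and cholesterol synthesis, and the list that fell almost completely was DNA replication and cell division. In the difference from control, where 5.03% and 6.61% of all genes were called, 19 of 21 tested cholesterol synthesis genes and 5 of 9 innate immune genes were positive. Negative differences were called for 8 of 10 lens genes, 8 of 18 cartilage genes, 12 of 29 synaptic genes and 7 of 17 chaperone genes. The lists and their members were chosen with earlier results of these data known. The shares over all genes are therefore a reference only, and no list was tested against them.

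**Figure D2:**
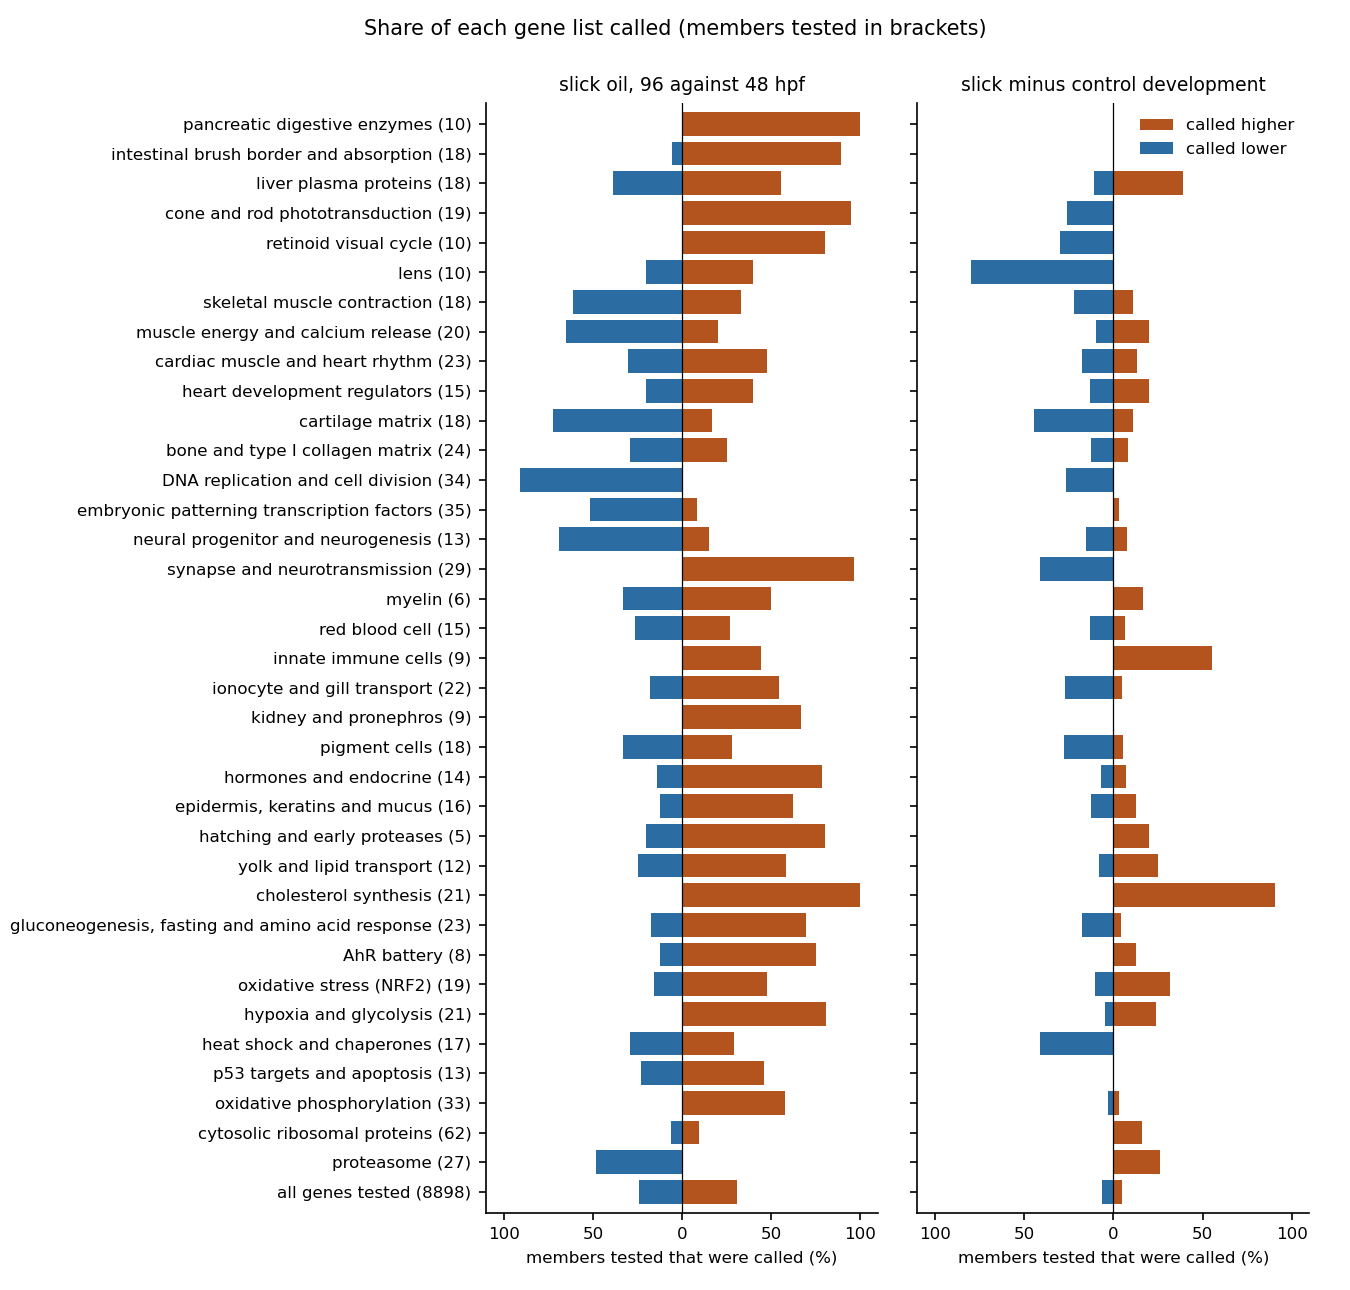
Bars give the percentage of the tested members of each list (number in brackets) that were called higher, to the right, or lower, to the left; the left panel is slick oil at 96 against 48 hpf and the right panel the difference of slick from control development. The bottom bar over all genes tested gives the background, with 30.7% and 24.4% on the left and 5.03% and 6.61% on the right. The lists were chosen with earlier results of these data known.

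The digestive system switched on in slick oil. All 10 tested pancreatic digestive enzyme genes rose, 9 of them at least 2-fold, with a median log2 change of 9.12 in slick oil and 8.99 in control; none of the 10 was called in the difference by edgeR or DESeq2, and none had an unadjusted p below 0.05. PRSS1, a trypsinogen, was at 30, 19.8 and 22.4 in the 48 hpf libraries and at 11472, 12506 and 10448 in the 96 hpf libraries. CTRB1/CTRB2, chymotrypsinogen, stood at 9.37, 6.92 and 13.8 and then at 11895, 13377 and 11676. PRSS2, another trypsinogen, was read in only a pair of the 48 hpf libraries, at 0.937 and 0.989, and reached 2265, 2595 and 2199. For these proenzymes the stages were apart by orders of magnitude in every library, and the slick and control libraries overlapped at 96 hpf for all 3: PRSS1 averaged 11475 ± 1029 in slick oil and 10319 ± 424 in control (SD, n = 3). In the direct test at 96 hpf PRSS1 and CTRB1/CTRB2 were called higher than control (log2 0.15, adjusted p = 0.016, and 0.17, adjusted p = 0.0082), calls that were lost in 5 and 4 of 12 other settings. CEL, the bile salt-activated lipase of the pancreas, was at 0 in all 3 slick libraries at 48 hpf and at 300, 387 and 270 at 96 hpf, at least 107-fold higher, taking 3 counts per library as the floor; with its 10 distinct table lines summed the log2 change was 5.23. The elastase CELA1 (log2 change 9.72 ± 0.23, SE, adjusted p = 3.6e-59), CTRC (9.24 ± 0.25, 2.3e-56) and the carboxypeptidase CPB1 (9.01 ± 0.15, 2.8e-76) also rose from near 0. AMY2A, pancreatic amylase, rose 53-fold, from 113, 120 and 125 to 6227, 6786 and 5932, but at 96 hpf every slick library was below the controls (7615, 7613 and 8976, log2 difference -0.35 ± 0.05, adjusted p = 4e-08).

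Gut lining genes followed the same course. Of 18 tested members of the intestinal brush border and absorption list, 16 rose and 1 fell in slick oil, all of these at least 2-fold, as 16 and 1 did in control, and the median log2 changes were 4.61 and 4.63. MGAM, a starch-digesting maltase, went from 4.68, 16.8 and 17 to 902, 992 and 967. ENPEP and ANPEP, aminopeptidases of the brush border, rose 39.1-fold and 67.3-fold, and SLC6A19, the neutral amino acid transporter, rose 15.9-fold from 15.9, 31.6 and 16 to 341, 355 and 314. In the difference from control, edgeR and DESeq2 called none of the 18 and 1 had an unadjusted p below 0.05, but 8 of 18 were lower in slick oil than in control at 96 hpf and none was higher. Those 8 became 4 with DESeq2, 4 with lines summed and 4 to 7 without single libraries. ANPEP was the clearest case, at 308, 316 and 323 in slick oil against 702, 672 and 646 in control at 96 hpf, without overlap (log2 difference -1.10 ± 0.07, adjusted p = 5.8e-27). The intestine marker APOA4 was at 10.3 to 18.8 at 48 hpf and 19.4 to 38.9 at 96 hpf in slick oil.

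By a rule that asks for a mean of at most 5 at 1 stage and at least 50 at the other, 43 genes switched on in slick oil and 47 in control, 31 of them in both. Some genes counted in only 1 treatment missed the rule narrowly in the other. CPB1, FAM13A and OVGP1 had control means of 6.16, 6 and 5.91 at 48 hpf, and GNB3 a slick mean of 5.08. Others, such as ENTPD5, differed more at 96 hpf (16.7 in slick oil and 55.8 in control). Besides the proenzymes, the switched genes included genes of the gut, the liver and the eye. ZAN, the match of an adhesion protein with mucin-like stretches, went from 3.75, 0 and 0 to 886, 912 and 832. OVGP1, of the chitinase family, went from 2.81, 3.96 and 2.13 to 1023, 1180 and 904, below the 1383, 1490 and 1498 of control. FAM13A went from 0, 7.91 and 4.26 to 1675, 1836 and 1663, on the most abundant of its 5 distinct lines; its mean at 96 hpf was 1684 on that line and 136 in the authors' deposited table. Neither ZAN nor FAM13A was called against control at 96 hpf (log2 difference 0.08 ± 0.06, adjusted p = 0.34, and 0.03 ± 0.05, adjusted p = 0.79). COL10A1, the collagen of hypertrophic cartilage and of fish bone-forming cells, was at 0 in every library of all 3 treatments at 48 hpf. It reached 440, 385 and 389 in slick oil at 96 hpf, at least 135-fold higher, and 864, 831 and 923 in control. The slick libraries therefore switched this gene on without exception but stayed below every control library (log2 difference at 96 hpf -1.10 ± 0.07, adjusted p = 1.7e-26). Only ASTL, the match of the astacin hatching enzymes, switched off, from 614, 552 and 383 to 1.02, 1.02 and 5.84 in slick oil and from a mean of 658 to 1.67 in control. That value is of the most abundant of its table lines: with all lines of the identifier summed, the log2 change was 0.575 upward instead.

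Photoreceptor genes switched on in slick oil but rose to lower levels than in control. Of 19 tested genes of cone and rod phototransduction, 18 rose, all at least 2-fold, and the median log2 change was 3.81 in slick oil, 6.23 in control and 4.96 in source oil. Within 96 hpf, 16 of the 19 were lower in slick oil than in control and none higher. OPN1LW, the match of the long-wavelength cone opsins, was at 0, 0.989 and 3.2 at 48 hpf and at 1985, 2162 and 1668 at 96 hpf in slick oil, while control reached 5289, 5321 and 5815 from a mean of 1.33. The highest slick library thus had well under the level of the lowest control library, with a log2 difference at 96 hpf of -1.50 ± 0.06 (adjusted p = 7e-42). GRK7, the cone opsin kinase, went from 0 in all 3 libraries to 115, 147 and 144, at least 45.2-fold higher, against 369, 403 and 402 in control. PRPH2, a structural protein of the outer segment, went from 0 to 165, 183 and 164, at least 57-fold higher, against 347, 351 and 394. Both were apart from control in every library at 96 hpf (log2 difference -1.53 ± 0.09, adjusted p = 6.5e-28, and -1.08 ± 0.08, adjusted p = 2.8e-20).

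The test of the difference in change, which has little power for genes near 0 at 48 hpf, called 5 of the 19 phototransduction genes, all negative. GNAT2, the cone transducin alpha subunit, had counts at both stages: 181, 154 and 158 rose to 550, 580 and 491 in slick oil, a log2 change of 1.71 ± 0.08, against 2.54 ± 0.06 in control, where 180 ± 1.84 rose to 1050 ± 47.9 (SD, n = 3). The difference was -0.83 ± 0.11 (adjusted p = 1.1e-09). GNAT1, its rod counterpart, showed a smaller difference, -0.58 ± 0.11 (adjusted p = 4.7e-05), with 160, 132 and 154 rising to 327, 361 and 321. Each of these 2 genes has 1 line in the count table, but the authors' deposited table gives other means: 1.18 at 48 hpf and 509 at 96 hpf for GNAT2, where the count line has 163 and 844, and 1 and 0.368 for GNAT1, where it has 147 and 467. Their 48 hpf levels, their tested differences and the rise of GNAT1 therefore hold for the count table only. GNB3, the cone beta subunit, rose from 3.75, 2.97 and 8.52 to 504, 534 and 456 in slick oil and to a mean of 1017 in control, a difference of -2.03 ± 0.54 (adjusted p = 0.0052). The last call rests on slick replicate 6 at 48 hpf, without which the adjusted p was 0.2, as does that of RGS9, the regulator that shuts off transducin (-2.50 ± 0.67, adjusted p = 0.0053, and 0.2 without that library). With lines summed the RGS9 difference was -0.91 and not called, and the slick change of GNB3 was 3.09 instead of 6.61 with its difference still called. For GNB3 the mean at 48 hpf was 3.06 on the kept line and 46.8 in the authors' deposited table, so the size of its difference depends on the line. The other members called were CNGA3 and CNGA1, channel subunits named here after their values were seen, with slick means of 30.5 and 8.37 at 96 hpf against 80.7 and 19.9 in control. Leaving out 1 library at a time gave 2 to 5 calls, DESeq2 gave 3 and summing lines gave 7.

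In the retinoid visual cycle, which regenerates the light-absorbing chromophore, 8 of 10 tested genes rose in slick oil and in control, with medians of 1.19 and 1.93; the difference was negative for 3 and positive for none, and 6 were lower than control at 96 hpf. RGR, a retinal-binding protein of the pigment epithelium and Müller glia, was even at 48 hpf (233, 239 and 240) and spread at 96 hpf (593, 522 and 354), while control stood at 1401, 1313 and 1368. Every slick library at 96 hpf was above the 48 hpf libraries and far below the controls, replicate 9 most. The slick change of 1.04 ± 0.10 was less than 50% of the control change of 2.33 ± 0.07, and the difference was -1.29 ± 0.12 (adjusted p = 7.1e-15). RLBP1, which carries the chromophore in those cells, rose from 0, 0 and 3.2 to 146, 113 and 85.7 against 428, 377 and 407 in control (log2 difference at 96 hpf -1.82 ± 0.10, adjusted p = 6.4e-31). BCO1, which cleaves beta-carotene to retinal, rose from 21.5, 20.8 and 21.3 to 197, 244 and 188 in slick oil and to 211, 230 and 238 in control. RDH12, a retinol dehydrogenase whose line is shared with another identifier, was higher in slick oil than in control at 96 hpf (0.65 ± 0.15, adjusted p = 0.00039).

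**Figure D3:**
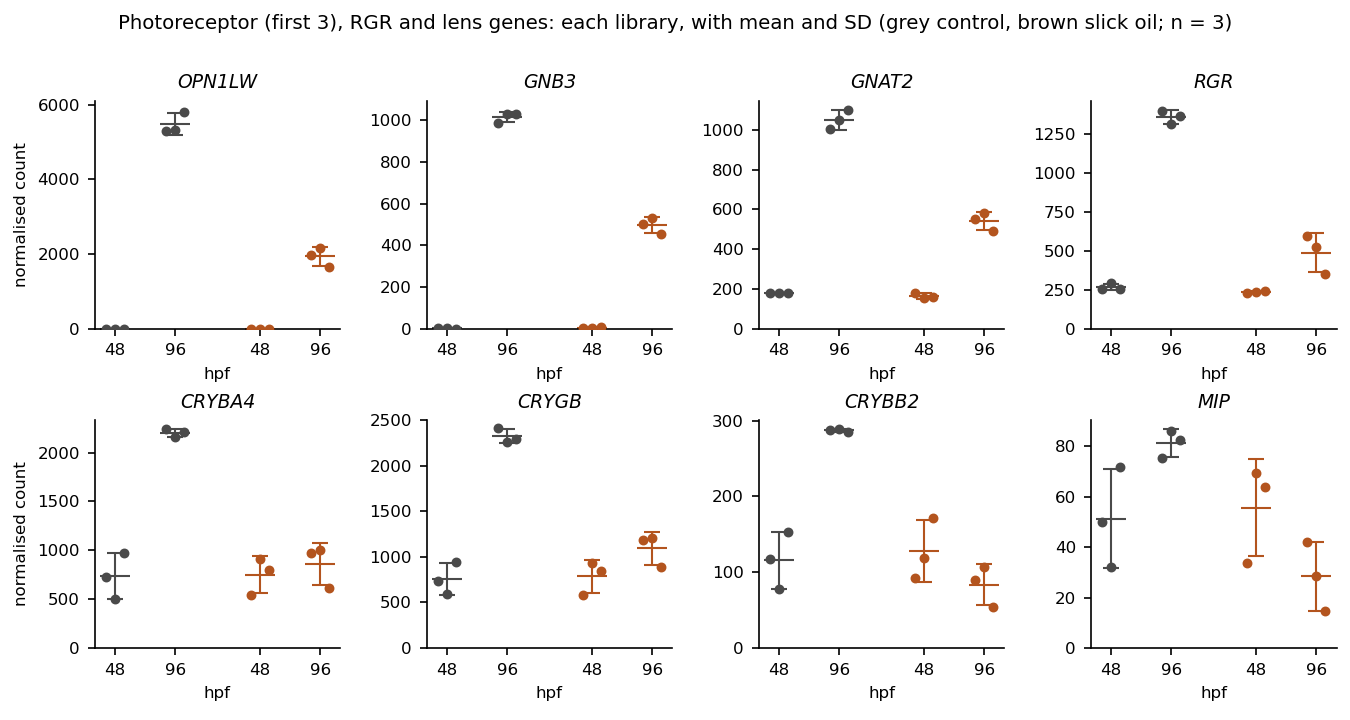
Points are the normalised counts of single libraries at 48 and 96 hpf (horizontal axis) in control (grey) and slick oil (brown), with the mean and SD of 3 libraries, on linear axes from 0. OPN1LW, GNB3, GNAT2 and RGR rise in both treatments and end lower in slick oil, while CRYBA4, CRYGB, CRYBB2 and MIP rise in control and end below every control library in slick oil.

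Most lens genes stalled in slick oil. Of 10 tested members, which are crystallins, membrane proteins and a gap junction protein of lens fibre cells, 9 rose in control and none fell; in slick oil 4 rose, 2 fell and none reached 2-fold. The median log2 change was 0.16 in slick oil, 1.35 in control and 0.98 in source oil, 8 of 10 were called lower in the difference, 7 of them stalled, and all 10 were below control at 96 hpf. CRYGB, a gamma crystallin, was at 579, 931 and 847 at 48 hpf and 1186, 1210 and 885 at 96 hpf in slick oil, against 734, 593 and 948 and then 2413, 2264 and 2299 in control. CRYBA1, a beta crystallin, was at 196, 363 and 317 and then 346, 330 and 194, against 271, 213 and 388 and then 745, 722 and 762. Slick stages overlapped for both genes, and control stages were apart. CRYBA4 averaged 749 ± 189 and then 861 ± 216 in slick oil, and 735 ± 233 and then 2204 ± 42.0 in control (SD, n = 3), a difference of -1.38 ± 0.14 (adjusted p = 5.6e-14).

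CRYBB2, another beta crystallin, and MIP, the aquaporin of lens fibres, moved below their 48 hpf mean. CRYBB2 was at 92.7, 119 and 172 and then 89.2, 107 and 54.6 in slick oil, where control rose from a mean of 116 to 287, and the difference was -1.92 ± 0.19 (adjusted p = 4.8e-14). MIP was at 33.7, 69.2 and 63.9 and then 42, 28.6 and 14.6, with a difference of -1.63 ± 0.27 (adjusted p = 2.2e-06). For CRYBB2 the fall itself, -0.60 ± 0.16 (adjusted p = 0.00083), was not called without slick replicate 6 at 48 hpf or replicate 9 at 96 hpf (adjusted p up to 0.088). Slick replicate 4 at 48 hpf and replicate 9 at 96 hpf were the lowest of their stage for these crystallins, and the summed counts of 3 lens markers ranged from 662 to 1196 and from 840 to 1317 in slick oil, against 659 to 1271 and 2538 to 2721 in control. The number of lens genes called lower in the difference was 9 without the first of these libraries and 8 without the other; 4 rises in slick oil became 2 and 5.

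Of the stalled genes named here, DHTKD1, ALDH7A1 and ACADS act in mitochondrial breakdown of amino acids or short fatty acids. No list of that breakdown was made, so how many of its other genes stalled was not counted. DHTKD1, which acts in lysine breakdown, was at 117, 149 and 144 and then 203, 217 and 201 in slick oil, against control means of 129 and 497 (difference -1.35 ± 0.13, adjusted p = 1e-14). ALDH7A1, of the same pathway, rose from 446, 472 and 473 to 610, 629 and 588 where control reached 1123, 1145 and 1103 (difference -0.79 ± 0.08, adjusted p = 7.2e-13). Their slick stages were apart, but the slick libraries at 96 hpf covered none of the control range. ACADS, the short-chain acyl-CoA dehydrogenase, did not move beyond its spread, with 329, 633 and 589 and then 540, 600 and 468, while control went from a mean of 496 to 1401 (difference -1.44 ± 0.14, adjusted p = 1.6e-14). SLC6A8, the creatine transporter, stayed at 203, 258 and 232 and then 272, 219 and 251 against a control rise to 519, 526 and 494 (difference -1.02 ± 0.11, adjusted p = 8.4e-13).

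The urea cycle genes CPS1 and ASS1 went the opposite way from control. CPS1, whose enzyme makes carbamoyl phosphate, fell from 73.1, 126 and 84.2 to 54.3, 40.8 and 46.8 in slick oil and rose in control from a mean of 69.4 to 113 (difference -1.74 ± 0.19, adjusted p = 2.5e-12). ASS1, argininosuccinate synthase, was at 88.1, 132 and 117 and then 89.2, 92.8 and 60.4, against a control rise from a mean of 101 to 208 (difference -1.52 ± 0.18, adjusted p = 1.7e-11). Its slick stages overlapped, and its fall in slick oil was not called without replicate 5 at 48 hpf or replicate 9 at 96 hpf (adjusted p up to 0.087). RRP9, needed to process ribosomal RNA, was flat at 51.5, 58.3 and 53.3 and then 56.4, 51 and 48.7, where control rose from a mean of 42.3 to 122 (difference -1.59 ± 0.20, adjusted p = 4.7e-10).

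Among genes that control switches down, the 44 stalled ones went less than 50% of the way down in slick oil on the log2 scale. BCL6, a transcriptional repressor, was at 160, 183 and 174 and then 168, 172 and 179, while control fell from a mean of 187 to 61.8 (difference 1.59 ± 0.15, adjusted p = 1.6e-14). DMGDH, which breaks down dimethylglycine from choline, was at 328, 427 and 305 and then 333, 337 and 324, while control fell from a mean of 428 to 164 (difference 1.32 ± 0.11, adjusted p = 4.2e-17). Slick libraries of both stages overlapped for these 2 genes, and every slick library at 96 hpf was above every control library. MOSPD2, a protein of contacts between the endoplasmic reticulum and other membranes, had the lowest p of the difference among the falling genes, with 1086, 1022 and 830 falling to 456, 440 and 404 against control means of 1326 and 201 (difference 1.55 ± 0.10, adjusted p = 5.3e-24). MSRB2 (1.41 ± 0.21, adjusted p = 8.3e-08), a methionine sulfoxide reductase, MMP11 (1.30 ± 0.17, adjusted p = 9.1e-10), a matrix metalloproteinase, and PRDM1 (1.29 ± 0.17, adjusted p = 6.1e-09), a transcription factor of slow muscle, pectoral fin and neural crest in zebrafish, were likewise stalled, MSRB2 with no called change in slick oil.

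Synaptic genes rose together in slick oil, 12 of 29 by less than in control. Of 29 tested, 28 rose, 27 at least 2-fold, and none fell. All 29 rose in control, and the median log2 changes were 1.64 in slick oil, 2.0 in control and 1.85 in source oil. The difference was called for 12, all reduced and none stalled, and 16 were lower than control at 96 hpf (11 with DESeq2) while 1 was higher. GRIN1, an NMDA glutamate receptor subunit, rose 4.34-fold from 71.2, 71.2 and 71.4 to 297, 299 and 331, against 448, 452 and 425 in control at 96 hpf (difference -0.68 ± 0.15, adjusted p = 0.00062). GRIA3, an AMPA glutamate receptor subunit, rose from 200, 206 and 212 to 557, 523 and 526, against 750, 734 and 670 (difference -0.63 ± 0.10, adjusted p = 2.6e-06). GAD1, which makes the inhibitory transmitter GABA, rose from 177, 182 and 193 to 597, 556 and 542, against 690, 673 and 702 (difference -0.37 ± 0.10, adjusted p = 0.0089). In each of these the slick libraries at 96 hpf were above all 48 hpf libraries and below all controls. GRIA4 and GRIA1, further AMPA receptor subunits, had differences of -0.56 and -0.55. For the vesicle proteins SV2A and SV2B the difference (-0.41 and -0.61) was not called in 2 and 4 of 18 other settings. The neuron markers SNAP25 and ELAVL3 did not rise with this list. Their summed counts were 512 to 586 at 48 hpf and 439 to 469 at 96 hpf in slick oil. In control the sums were 460 to 496 and then 446 to 486.

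Most neural progenitor genes fell in slick oil and in control: of 13 tested, 9 fell and 2 rose, 7 of the falls at least 2-fold, against 10 and 2 in control, with medians of -1.09 and -1.20. The Notch ligands DLL1 and DLL3 fell 6.08-fold and 8.07-fold. DLL3 went from 2259, 2178 and 2094 to 223, 255 and 331, a slightly smaller fall than in control (difference 0.36 ± 0.11, adjusted p = 0.014, not called in 4 of 18 other settings, with adjusted p up to 0.37). NOTCH3 went from 5579, 5639 and 5913 to 1247, 1226 and 1463 (log2 change -2.12 ± 0.05 in slick oil and -2.13 ± 0.05 in control), and INSM1, a factor of newborn neurons and endocrine cells, fell 4.64-fold. Slick stages were fully apart for these genes, as for 5199 of the 8898 genes tested, and slick and control overlapped at 96 hpf for DLL3 and NOTCH3. DLL4, the ligand of vessel sprouts, was stalled, falling 1.5-fold from 156, 178 and 168 to 118, 111 and 106 against a control fall to 62.1, 74.2 and 71.2 (difference 0.68 ± 0.16, adjusted p = 0.0012). With lines summed its change in slick oil was 0.108 and not called, while the difference was still called (adjusted p = 0.0004). The pluripotency-linked RNA-binding gene LIN28A fell 6.97-fold and the growth factor gene GDF11 6.44-fold. In the myelin list 3 of 6 tested genes rose and 2 fell, as in control, and in the list of embryonic patterning transcription factors 18 of 35 fell and 3 rose, against 23 and 1 in control; 1 gene of each list was called in the difference. SOX11, a factor of immature neurons, fell 2.49-fold and PAX6, a regulator of eye and brain, 1.9-fold in slick oil.

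Nearly all cell division genes fell in slick oil, and 9 of 34 had a larger fall than in control. Of 34 tested members of the DNA replication and cell division list, 31 fell, 25 at least 2-fold, and none rose; in control 32 fell. The median log2 change was -1.44 in slick oil, -1.05 in control and -1.16 in source oil. The difference was called for 9, all negative, a count that was 6 with DESeq2 and 6 to 10 without single libraries, and 13 were lower than control at 96 hpf, while none differed at 48 hpf. MCM2, a subunit of the replicative helicase, fell from 216, 198 and 190 to 110, 94.9 and 90.6 in slick oil, and control ended at 160, 164 and 180 (difference -0.83 ± 0.14, adjusted p = 2.1e-06). MCM5, of the same ring, fell from 194, 190 and 176 to 90.2, 117 and 87.7, against 162, 152 and 158 (difference -0.64 ± 0.15, adjusted p = 0.0011). Slick libraries at 96 hpf lay below all others for both. The DNA polymerase genes POLA1 (-0.83 ± 0.21, adjusted p = 0.0027) and POLE (-0.60 ± 0.13, adjusted p = 0.00038) differed in the same direction. The mitotic kinase genes PLK1 (358, 375 and 379 to 58.4, 79.6 and 71.1) and CDK1 (510, 503 and 537 to 139, 135 and 129) fell 5.32-fold and 3.85-fold; their difference from control development was not called (adjusted p = 0.082 and 0.13). RRM2, a subunit of the enzyme that makes deoxynucleotides, fell 6.6-fold, and its difference (-0.45 ± 0.13, adjusted p = 0.014) was lost without slick replicate 7 or 8 at 96 hpf (adjusted p up to 0.092).

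**Figure D4:**
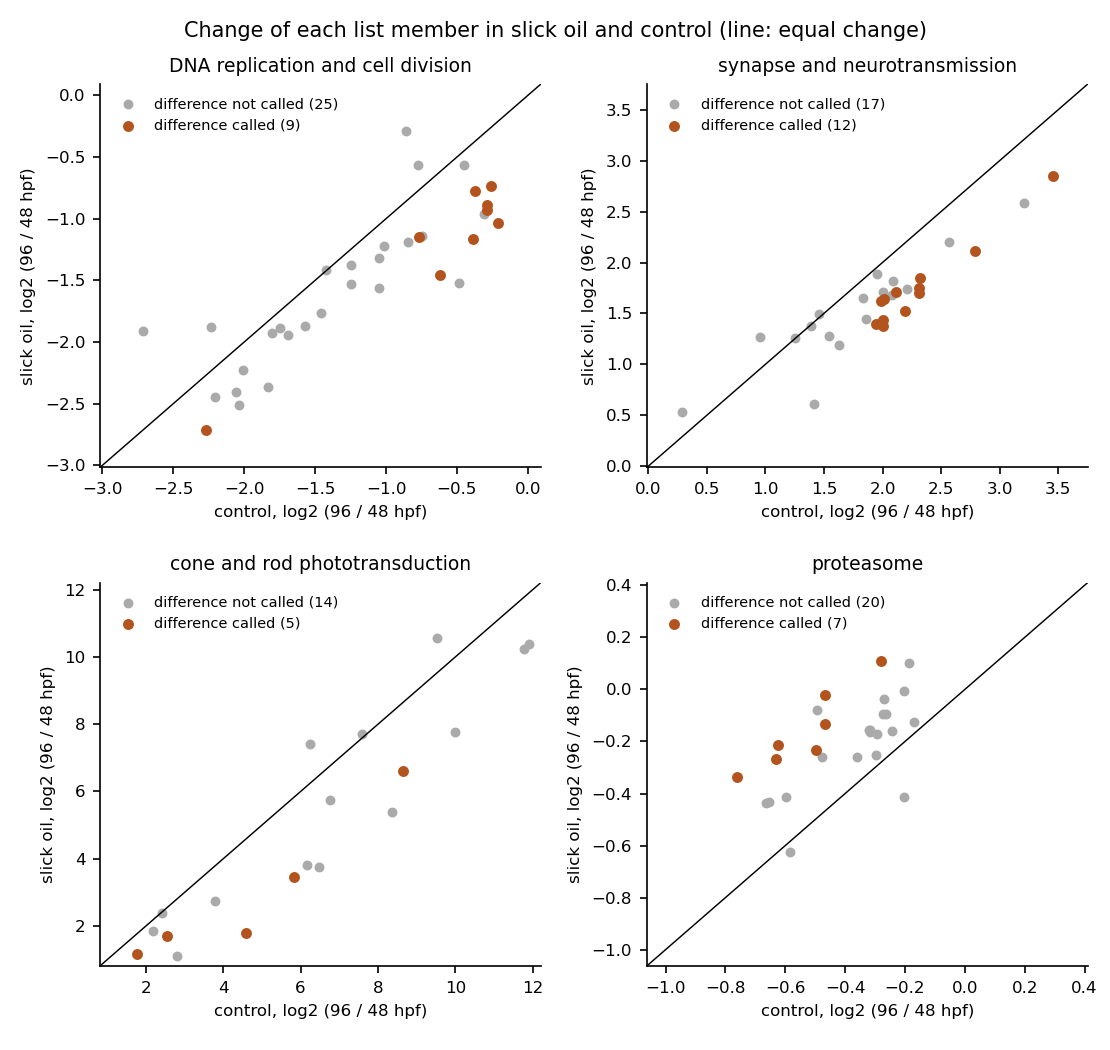
Points are the tested members of 4 lists, with their log2 change from 48 to 96 hpf in control (horizontal axis) and in slick oil (vertical axis); the line marks equal change, and members with a called difference are brown. DNA replication genes (9 called), synaptic genes (12) and phototransduction genes (5) lie mostly below the line, and proteasome genes (7) mostly above it.

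Cholesterol synthesis showed the strongest excess over control. All 21 tested genes of the pathway and its control rose in slick oil, 19 at least 2-fold, with a median log2 change of 2.67 against 0.98 in control and 1.07 in source oil. In control 17 rose and 1 fell. The difference was called for 19, all positive, 9 of them in the class that exceeded its control rise, and all 21 were above control at 96 hpf, but only 1 was at 48 hpf. LSS, which closes the sterol ring, went from 70.3, 45.5 and 49 to 466, 540 and 467 (8.94-fold) against 115, 132 and 151 (difference 1.71 ± 0.17, adjusted p = 5.6e-14). MSMO1, a sterol demethylating enzyme, went from 207, 172 and 223 to 2191, 2249 and 2011 (10.7-fold) against 481, 503 and 494 (difference 1.52 ± 0.11, adjusted p = 1.4e-20). For both genes the slick libraries at 96 hpf were several times above every control library, while at 48 hpf MSMO1 but not LSS was called higher in slick oil (0.61, adjusted p = 1.6e-06).

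DHCR7, which acts in the last step, went from 228, 207 and 197 to 1449, 1707 and 1476 in slick oil (7.34-fold) against 548, 568 and 544 in control (difference 1.19 ± 0.10, adjusted p = 1e-16). TM7SF2, a sterol reductase, and INSIG1, a sterol-sensing brake on the pathway, rose in slick oil without rising in control: TM7SF2 went from 114, 98.9 and 96.9 to 317, 361 and 302, while control stood at a mean of 109 and then 94.1 (difference 1.88 ± 0.14, adjusted p = 7.3e-20). INSIG1 went from 90.9, 90 and 54.3 to 239, 200 and 202, and control from a mean of 79.8 to 70.4 (difference 1.64 ± 0.17, adjusted p = 5.5e-13). With DESeq2, 14 of the 21 were called in the difference.

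**Figure D5:**
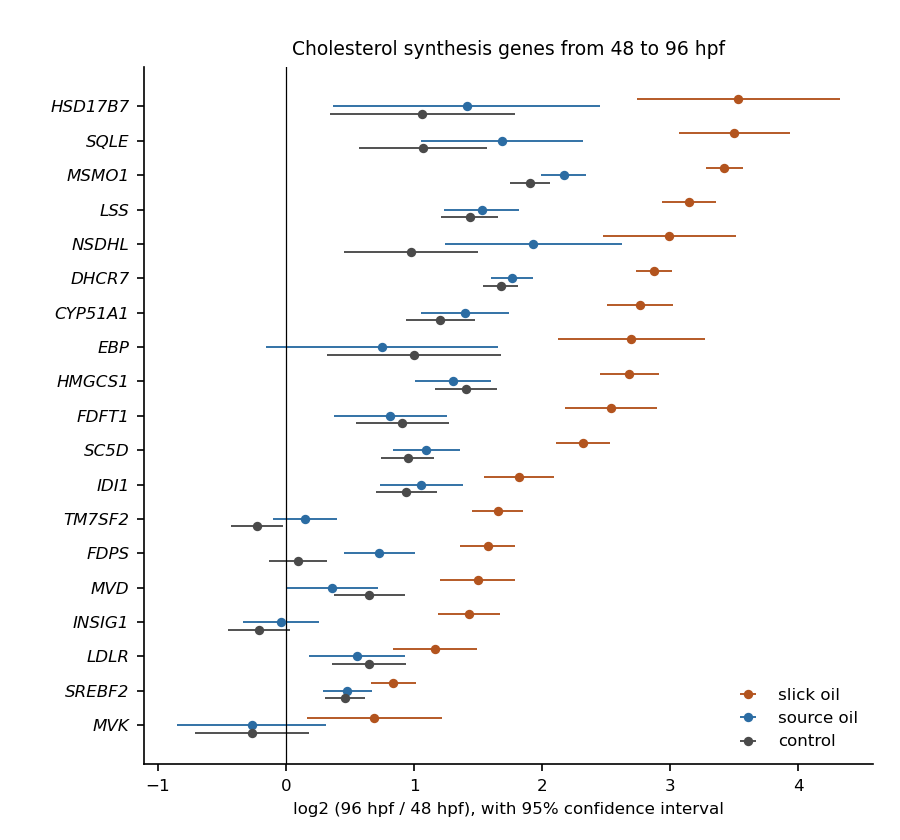
Points are the log2 change from 48 to 96 hpf of 19 of the 21 tested cholesterol synthesis genes, with 95% confidence intervals, in slick oil (brown), source oil (blue) and control (grey). The slick changes lie to the right of both others for nearly all genes; over all 21 tested the medians are 2.67, 1.07 and 0.98.

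Plasma protein genes of the liver divided. Of 18 tested, 10 rose and 7 fell in slick oil, against 6 and 9 in control, and the difference was positive for 7 (4 with DESeq2) and negative for 2. FGG, a fibrinogen chain (39.3, 43.5 and 43.7 to 595, 715 and 611), and PLG, plasminogen (79.6, 90 and 57.5 to 368, 402 and 413), rose 15.2-fold and 5.21-fold. The positive difference of PLG from control (0.44, adjusted p = 0.042) was not called in 11 of 18 other settings. RBP4, the plasma carrier of retinol, rose from 1115, 1157 and 1023 to 2274, 2629 and 1972 where control stayed between 1525 and 1724 throughout (difference 0.98 ± 0.08, adjusted p = 7.6e-18). Falls were led by TF, transferrin, whose line it shares with another human identifier and which went from 2765, 2380 and 2283 to 136, 150 and 129, a 17.9-fold fall against a control fall to 298, 313 and 358 (difference -0.74 ± 0.11, adjusted p = 2e-07). FETUB, a fetuin, fell 13.7-fold and also beyond control (-0.51 ± 0.12, adjusted p = 0.0012).

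CP, ceruloplasmin, stalled, falling from 507, 410 and 413 to 223, 199 and 196 where control ended at 77.5, 104 and 105 (difference 1.46 ± 0.12, adjusted p = 7.6e-18), and so did ITIH2, a protease inhibitor heavy chain (0.78 ± 0.09, adjusted p = 1.2e-10). At 48 hpf 8 of the 18 were already lower in slick oil than in control and none was higher, and the summed counts of 3 liver markers were 2715 to 3230 in slick oil against 3835 to 4267 in control; their part in the differences of change was not tested. In the yolk and lipid transport list 7 of 12 rose and 3 fell, with 3 positive and 1 negative difference. APOB, the core protein of lipoproteins, fell from 387, 422 and 358 to 86.1, 88.8 and 77.9 (4.62-fold), by less than control, although that difference (0.90 ± 0.19, adjusted p = 0.00033) was not called with DESeq2 (adjusted p = 0.055). DGAT2, which makes triglyceride, rose 4.45-fold, from 194, 191 and 175 to 830, 891 and 769, against 585, 583 and 639 in control (difference 1.08 ± 0.10, adjusted p = 4.8e-15).

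Most cartilage matrix genes fell in slick oil, and 8 of 18 had a negative difference from control. Of 18 tested, 13 fell and 3 rose, against 9 and 5 in control, with medians of -0.64 and -0.24 and -0.63 in source oil; the difference was negative for 8 and positive for 2. COL2A1, the main cartilage collagen, fell from 12498, 15170 and 13719 to 8509, 8196 and 7826, while control ended at 14357, 12815 and 12243 (difference -0.44 ± 0.07, adjusted p = 8.1e-07). EPYC, a small proteoglycan of growth cartilage, fell 3.51-fold, from 252, 296 and 271 to 88.1, 88.8 and 56.5, against 150, 113 and 135 (difference -1.12 ± 0.15, adjusted p = 5.3e-09). Slick libraries were the lowest at 96 hpf for both. COL11A2 and COL9A3, further fibril collagens of cartilage, differed by -0.62 ± 0.08 and -0.76 ± 0.10 (adjusted p = 4.8e-09 for each); for COL9A3 the mean was 634 at 48 hpf and 736 at 96 hpf on the count line and 0.241 and 0.255 in the authors' deposited table. CILP, of cartilage and tendon, stayed level where control fell (0.85 ± 0.10, adjusted p = 3e-10), and CRTAC1, a secreted cartilage protein, was higher in slick oil at both stages, rising from 111, 113 and 117 to 305, 311 and 344 while control rose to 106, 109 and 108. In the bone and type I collagen list 6 of 24 rose and 7 fell, against 30.7% and 24.4% of all genes tested. At 96 hpf 9 of the 24 were lower than control, against 12% of all genes tested. COL1A1 fell by the same amount in slick oil and control (-0.66 ± 0.05 in each) from different levels, 15936, 16689 and 15598 against 21792, 24058 and 21277 at 48 hpf.

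Muscle genes mostly fell in relative abundance. In skeletal muscle contraction 11 of 18 fell and 6 rose, as 11 and 7 did in control, and in muscle energy and calcium release 13 of 20 fell and 4 rose. CKM, muscle creatine kinase and one of the most abundant transcripts, went from 126150, 153378 and 151987 to 69784, 69649 and 67704, against 54581, 55628 and 57929 in control. UNC45B, the myosin chaperone, fell 2.92-fold, from 109, 137 and 115 to 41, 43.9 and 39, beyond control, which ended at 74.9, 66.2 and 85.3 (difference -0.98 ± 0.19, adjusted p = 3.5e-05). ITGB1BP2, a muscle-specific integrin-binding chaperone, likewise fell 3.29-fold (difference -1.32 ± 0.18, adjusted p = 6.1e-09), while CASQ1, the calcium store protein, and ADSSL1, of muscle purine metabolism, fell less than in control (0.36 ± 0.08, adjusted p = 0.00037, and 0.45 ± 0.10, adjusted p = 0.00076). MYBPC1, a myosin-binding protein of slow muscle, rose 15.7-fold in slick oil.

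In the cardiac list 11 of 23 rose and 7 fell, with 3 positive and 4 negative differences, and 8 were lower and 3 higher than control at 96 hpf. With DESeq2 these were 1 and 3 differences, and 3 lower and 1 higher. Without single libraries the 4 negative differences ran from 2 to 5 and the 8 lower from 4 to 7. Of all genes tested, 12% were lower and 8.44% higher than control at 96 hpf. Several of its abundant members, among them ACTC1 and MYH7, are also expressed by skeletal muscle. CACNA1D, a calcium channel of pacemaker cells, neurons and hair cells, rose 2.24-fold, from 96.5, 108 and 110 to 238, 223 and 243, by less than control (difference -0.81 ± 0.15, adjusted p = 1.2e-05), starting from a higher level than the control mean of 74.6. ATP2A2, the calcium pump of heart and slow muscle, fell 1.6-fold, beyond control (-0.30 ± 0.08, adjusted p = 0.0067), a difference not called with lines summed or without slick replicate 6 at 48 hpf (adjusted p up to 0.061). Among 15 heart development regulators 6 rose and 3 fell, against 3 and 7 in control; the 6 became 3 with lines summed, 4 with DESeq2 and 3 to 6 without single libraries. GATA6 rose from 170, 153 and 119 to 302, 350 and 304, where control stayed between 220 and 258 (difference 0.96 ± 0.12, adjusted p = 1.1e-09).

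Ammonia channel genes were already above control at 48 hpf. Of 22 ionocyte and gill genes, 12 rose and 4 fell in slick oil, against 14 and 4 in control, with 6 negative differences (4 with DESeq2) and 1 positive. RHCG, an ammonia channel of the gill and skin, was already at 74, 70.2 and 69.2 at 48 hpf in slick oil against 26.5, 20.9 and 24.1 in control, and rose to 312, 386 and 403 against 456, 497 and 513 (difference -1.99 ± 0.18, adjusted p = 1.1e-15). RHBG and RHAG, its relatives in gill and red cell membranes, also began higher in slick oil than in control (log2 1.33, adjusted p = 3e-19, and 1.14, adjusted p = 1.1e-18) and ended closer to it (0.27 and 0.18). The slick and control groups thus stood apart at 48 hpf for all 3, and by less at 96 hpf. AQP1, a water channel, rose 3.41-fold, from 46.8, 35.6 and 37.3 to 123, 160 and 125, beyond control (difference 0.93 ± 0.20, adjusted p = 0.00029). In kidney 6 of 9 rose and none was called in the difference by edgeR or DESeq2 (0 at an unadjusted p below 0.05). In the red blood cell list 4 of 15 rose and 4 fell, against 30.7% and 24.4% of all genes tested.

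Pigment, hormone and skin genes gave a mixed picture, where 30.7% of all genes tested rose and 24.4% fell in slick oil. In pigment cells 5 of 18 rose and 6 fell, with 5 negative differences (3 with DESeq2) and 1 positive; TYR, tyrosinase, fell 2.56-fold, from 237, 259 and 255 to 123, 94.9 and 75 (difference -0.80 ± 0.14, adjusted p = 8.6e-06), and PMEL, of the melanosome, went from 164, 177 and 180 to 164, 132 and 122 where control rose to 241, 217 and 228 (difference -0.81 ± 0.13, adjusted p = 3.9e-07). In hormones and endocrine 11 of 14 rose and 2 fell. IGFBP1, an insulin-like growth factor binding protein that rises with fasting and stress in many vertebrates, went from 21.5, 22.7 and 38.3 to 196, 220 and 258 in slick oil and to 67.7, 50.8 and 47.2 in control (difference 1.87 ± 0.26, adjusted p = 1.4e-08). THRB, a thyroid hormone receptor, rose from 60.9, 72.2 and 59.7 to 112, 107 and 95.5 against 142, 139 and 143 in control and was stalled (difference -0.76 ± 0.18, adjusted p = 0.0012). FSTL3, a binding protein of activin and myostatin, went from 60.9, 53.4 and 71.4 to 360, 362 and 329 against 175, 163 and 181 (difference 1.67 ± 0.15, adjusted p = 4.3e-16). BCL6B, a relative of BCL6 found in endothelium and lymphocytes, rose from 54.3, 69.2 and 57.5 to 158, 160 and 139 with no rise in control (difference 1.69 ± 0.18, adjusted p = 3.8e-13). In each of these the slick libraries at 96 hpf were apart from every control library, which adds no support, since the genes were picked by called differences. BCL6B has 1 line in the count table, with a mean of 60.9 at 48 hpf, against 25.6 in the authors' deposited table. Its change from 48 hpf therefore holds for the count table only. In epidermis 10 of 16 rose and 2 fell, and in the hatching protease list 4 of 5 rose and 1 fell.

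Innate immune genes were called higher in 4 of 9 tested and lower in none, against 2 and 3 in control, and the difference was positive for 5 and negative for none. In the direct test at 96 hpf 4 of the 9 were higher than control and 1 was lower. EPX/MPO, granulocyte peroxidase, went from 6.56, 32.6 and 9.59 to 942, 1353 and 1271 and overlapped the control libraries of 1254, 1436 and 1567. It was called lower than control at 96 hpf (log2 -0.25, adjusted p = 0.013), a call lost in 3 of 11 other settings. Its mean at 96 hpf was 1302 on the count line and 20.7 in the authors' deposited table. CSF1R, the macrophage growth factor receptor, went from 39.3, 34.6 and 51.1 to 71.7, 70.4 and 54.6 (difference 0.69 ± 0.21, adjusted p = 0.02, not called in 6 of 18 other settings). The 5 positive differences became 2 without slick replicate 4 at 48 hpf and 0 with DESeq2. Of 3 immune cell markers the summed counts were 41.5 to 57.5 and then 52.6 to 56.1 in slick oil, and 45.9 to 54.2 and then 32.8 to 46.2 in control.

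Antioxidant and chaperone genes divided, while most hypoxia and glycolysis genes rose. Of 19 tested NRF2 targets, the antioxidant genes, 9 rose and 3 fell, against 10 and 2 in control, with 6 positive (4 with lines summed) and 2 negative differences. SQSTM1, an autophagy receptor, went from 122, 110 and 113 to 507, 455 and 564 (4.43-fold), while control reached 141, 124 and 121 (difference 1.39 ± 0.14, adjusted p = 4.8e-14). TKT, transketolase, fell from 324, 325 and 319 to 251, 230 and 266 while control rose from a mean of 184 to 350, so that it was above control at 48 hpf and below it at 96 hpf (difference -1.29 ± 0.11, adjusted p = 1.6e-17). Of 21 hypoxia and glycolysis genes 17 rose and none fell, against 15 and 2 in control, with 5 positive differences and 1 negative. The 5 became 2 with lines summed, 3 with DESeq2 and 2 to 5 without single libraries. LDHA, lactate dehydrogenase, rose 2.69-fold, from 254, 326 and 263 to 745, 784 and 739, against 466, 413 and 417 in control (difference 1.00 ± 0.12, adjusted p = 2e-11), whereas PGK1, another glycolytic enzyme, rose alike (1.39 ± 0.06 and 1.42 ± 0.06).

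In the fasting and gluconeogenesis list 16 of 23 rose and 4 fell, with 1 positive and 4 negative differences; PCK1, its rate-limiting enzyme, rose 4.07-fold, from 359, 330 and 283 to 1314, 1326 and 1317, as in control, and CHAC1, of the amino acid stress response, fell where control rose (difference -1.19 ± 0.15, adjusted p = 1.3e-09). Proteasome genes, with 7 positive differences, fell for 13 of 27 in slick oil against 25 in control, and 19 were higher than control at 96 hpf. The medians were -0.16 in slick oil, -0.32 in control and -0.22 in source oil. With lines summed the 7 became 3 and the 19 became 12, and without single libraries they ran from 4 to 8 and from 13 to 18. PSMB7, a catalytic subunit, went from 496, 451 and 509 to 373, 382 and 396 against 277, 265 and 310 (difference 0.43 ± 0.09, adjusted p = 0.00038). Ribosomal protein genes fell for 25 of 62 in control and for 4 in slick oil, where 6 rose. These counts of calls are not at equal depth, and the median log2 changes were -0.09 in control and 0.04 in slick oil. Without single libraries the 4 ran from 1 to 4 and the 6 from 1 to 8, and with lines summed the 6 became 1. Of the 62, 10 had a positive difference, a count that ran from 2 to 14 when single libraries were left out and was 5 with lines summed. Heat shock and chaperone genes rose for 5 of 17 and fell for 5, against 9 and 4 in control, with 7 negative differences. At 48 hpf 4 of the 17 were higher than control and none lower, and at 96 hpf 1 was higher and 6 lower (3 to 5 without single libraries). HSP90AA1 was above control at 48 hpf (5333, 5042 and 5210 against 4278, 4208 and 4403) and level with it at 96 hpf. Oxidative phosphorylation genes rose for 19 of 33, with 1 difference in each direction. Of 13 p53 targets 6 rose and 3 fell in slick oil, against 3 and 4 in control. None was called in the difference by edgeR or DESeq2, and 4 had an unadjusted p below 0.05. In the direct test at 96 hpf 5 of the 13 were higher than control and 1 was lower, against 8.44% and 12% of all genes tested. The 5 ran from 2 to 5 without single libraries.

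The aryl hydrocarbon receptor marker CYP1A1 was high throughout in slick oil, at 3828, 3493 and 3518 at 48 hpf and 2920, 3286 and 3477 at 96 hpf, against means of 120 and 92.1 in control and 1235 and 1048 in source oil. Its small fall with stage (-0.16 ± 0.06, adjusted p = 0.0092) was not called without slick replicate 4 at 48 hpf or replicate 7 at 96 hpf (adjusted p up to 0.14). AHRR, the repressor of the receptor, rose from 162, 176 and 157 to 230, 270 and 278, against control means of 14.2 and 33.8. CYP1B1 rose from 2.81, 5.93 and 12.8 to 30.7, 29.6 and 42.9 (4.79-fold). For all 3 genes every slick library was above every control library at both stages. In a list of the receptor gene AHR, its partner ARNT and genes that respond to it, 6 of 8 rose and 1 fell, with 1 difference, which was positive; 4 were above control at 48 hpf and 4 at 96 hpf.

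Against source oil, the difference in change was positive for 198 genes (2.23%) and negative for 260 (2.92%). Of the genes called in this difference and in that from control, 362 had the same sign in both; the slick libraries enter both comparisons. Cholesterol synthesis again led by count, with 16 of 21 positive and none negative, followed by the lens with 8 of 10 negative, DNA replication with 12 of 34 negative and the chaperones with 6 of 17 negative. Cartilage differed from that pattern, with 2 of 18 positive and none negative. Few or no members were called for synaptic genes (1 of 29, negative), phototransduction (2 of 19, negative) and the proteasome (0 of 27). LSS changed by 3.15 ± 0.11 in slick oil and reached a mean of 132 in source oil at 96 hpf against 466, 540 and 467 in slick oil (difference 1.62, adjusted p = 2.9e-09). BCL6B (1.75, adjusted p = 1e-10) and IGFBP1 (1.64, adjusted p = 5e-05) also rose more than in source oil. CRYBB2 (-1.54, adjusted p = 6.9e-09) and ITGB1BP2 (-1.48, adjusted p = 1.7e-08) changed more downward than in source oil. CFI, a complement regulator, rose 14-fold in slick oil, from 10.3, 9.89 and 7.46 to 141, 140 and 106 (difference 1.74, adjusted p = 0.0016, and 0.24 without source replicate 13 at 48 hpf). The differences of RGS9 (-3.18, adjusted p = 0.0072) and ASTL (-2.45, adjusted p = 0.014) were not called in 3 and 4 of 18 other settings.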

How the data were processed

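RNA-seq libraries (TruSeq, total RNA) of 30 pooled whole embryos or larvae were analysed from the authors' deposited table of counts per human gene identifier. The submitters' processing notes name HTSeq, DESeq2 and hg19, with no version or role; aligner, annotation and strand handling are not given in the sources used here. Of the authors' deposited tables, those of slick oil against control at 48 and 96 hpf gave the symbols and a mean signal over the samples compared, taken as counts divided by size factors, which was used only to check the table line chosen for a gene; the other comparison tables were not used here. All count columns were used, with 0 left over.

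The count table had 42538 lines and 12653 identifiers. The 332 lines without an identifier, with at most 0.043% of a library's counts, were left out. Of the 5654 identifiers with several distinct lines (up to 30), each was represented by its most abundant line; that line had a median ratio of 1.01 to the authors' deposited mean and the sum of lines 2.15 at 48 hpf. Identifiers with identical lines were treated as 1 feature. Of 10998 features with a count, 8898 passed filterByExpr. Control samples whose counts differed by less than sampling noise (chi-square per degree of freedom 0.968 to 1.03 in 5 pairs, 1.18 to 3.03 in the other 41 replicate pairs) were summed, which left 27 libraries in 9 groups. The highest values, 2.82 and 3.03, were those of slick replicate 4 at 48 hpf against replicates 5 and 6 of that group.

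edgeR 4.0.16 in R 4.3.3 was run with TMM scaling and glmQLFit on all 27 libraries (a biological coefficient of variation of 4.12% with 18 degrees of freedom left), and two-sided quasi-likelihood F-tests (glmQLFTest) were adjusted by Benjamini-Hochberg over all genes tested, with calls at 0.05. The procedure was tested on simulated data. Precision follows from the kept counts per library and covers counting error and the spread between 3 libraries only.

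The contrasts were 96 against 48 hpf in slick oil, control and source oil, the difference of the first from each of the others and, added after the data were seen, slick oil against control within each stage. Alternatives were RLE scaling, DESeq2 1.42.0, no low-count filter, summed lines, only the libraries compared, all deposited samples kept separate, and leaving out each library. The members and the 36 lists (1021 genes, 770 with a line, 671 tested) were chosen with earlier results of these data known.

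Named genes had a symbol and a mean normalised count of at least 50 over the contrast's libraries. They were the extreme called changes and differences (10 and 8 in each direction, 4 against source oil), up to 4 members with the lowest p of each list with at least 3 strong changes or 2 called differences, 8 stalled genes in each direction, the 6 highest of the switched genes, and CYP1A1, CYP1B1 and AHRR. The extreme changes in slick oil were taken only among genes whose slick stages did not overlap. CNGA1 and CNGA3 fell outside the naming rule. A few genes that the rule picks are not reported here. Plots were drawn with matplotlib 3.10.9 in Python 3.11.15. No sequences are printed, since no reference sequence was used here.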

Additional observations from a re-analysis of the deposited data

Results flagged for a closer look

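The developmental change in slick oil differed from that in control for 1036 genes and from that in source oil for 458, each by a test of the difference itself (edgeR's quasi-likelihood test, adjusted p below 0.05); these counts and the genes below are given because that test was passed. All values are differences of log2 changes, 3 libraries per group and stage.

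Against control, the difference was 1.88 for TM7SF2, 1.87 for IGFBP1, 1.71 for LSS, 1.69 for BCL6B, 1.67 for FSTL3 and 1.64 for INSIG1. The negative differences were -2.50 for RGS9, -2.03 for GNB3, -1.99 for RHCG, -1.92 for CRYBB2, -1.74 for CPS1, -1.63 for MIP, -1.59 for RRP9 and -1.52 for ASS1. Those of RGS9 and GNB3, both near 0 at 48 hpf on the kept line, were not called without slick replicate 6 at 48 hpf (adjusted p = 0.2 for each). With lines summed that of RGS9 was not called either, while that of GNB3 was. For GNB3 the mean at 48 hpf was 3.06 on the kept line and 46.8 in the authors' deposited table. For BCL6B the mean at 48 hpf was 60.9 on the count line and 25.6 in the authors' deposited table. Slick and control libraries did not overlap at 96 hpf for any of these 14 genes. They were picked as the largest called differences from the same values, so this adds no support of its own. Among all 1036 called genes the libraries were apart at 96 hpf alone for 619 and at both stages for 249.

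Against source oil, the difference was 1.75 for BCL6B, 1.74 for CFI, 1.64 for IGFBP1 and 1.62 for LSS, and -3.18 for RGS9, -2.45 for ASTL, -1.54 for CRYBB2 and -1.48 for ITGB1BP2. BCL6B, IGFBP1, LSS, RGS9 and CRYBB2 thus appear among the largest differences from both. The differences of RGS9, ASTL and CFI from source oil were not called in 3, 4 and 1 of 18 other settings.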

How the results depend on the processing

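The number of genes called between 48 and 96 hpf in slick oil (4902) ran from 4458 to 4557 without single libraries, and that in control (5547) from 5185 to 5408. The difference from control (1036 genes) ran from 852 to 1046 and fell to 678 with DESeq2, and the difference from source oil (458) ran from 367 to 439. Stalled genes (126) ran from 106 to 134, were 77 with DESeq2 and 271 when a 1.5-fold control change was enough. Switched genes ran from 40 to 44 and were not recounted with lines summed. Slick oil against control gave 1408 to 1717 genes at 96 hpf and 164 to 265 at 48 hpf, where DESeq2 gave 172 and summed lines 163, against 282. With all lines summed, ASTL turned to 0.575 in slick development (adjusted p = 2.7e-05), -1.204 in the difference from control and -1.477 against control at 96 hpf, and DLL4 turned to 0.108 in slick development (adjusted p = 0.31). For ASTL the difference from source oil ran from -3.763 to 0.060 when single libraries were left out, the latter without source replicate 18 at 96 hpf (adjusted p = 0.98). The cause was not tested. Summing lines also moved the slick log2 change of CTRC from 9.24 to 6.93, of RLBP1 from 6.69 to 4.19, of ANPEP from 6.06 to 5.25 and of IGFBP1 from 3.04 to 4.49. Among the named genes, 110 of the recomputed differences from control lost their call and 22 gained one, with 3663 on the same side. The kept line was over 1.5-fold from the authors' deposited mean for 46 of 211 named genes, among them CRYBB2, CRYGB, IGFBP1, RGS9 and RHCG, and at least 10-fold from it for 11: ALAS2, ASTL, CEL, COL9A3, EPX/MPO, FAM13A, GNAT1, GNAT2, GNB3, MYH7 and PRPH2. MYH7 had means of 27278 and 16248 on its line and 0 in the authors' deposited table at both stages. For 11 of the 46, BCL6B, GNAT1, GNAT2 and MYH7 among them, the count table has 1 distinct line, so the choice of line does not enter. No paired analysis was possible because slick libraries at 48 and 96 hpf share no replicate number. Genes near 0 at 48 hpf leave the difference in change with little power at this depth.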

Other observations

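Single members of the gluconeogenesis, hatching protease and liver plasma lists also differed from control. TDO2, which opens the tryptophan ring, came on in slick oil, from 0.937, 2.97 and 0 to 152, 132 and 160 in slick oil and to 105, 93.1 and 92.3 in control (log2 difference at 96 hpf 0.60 ± 0.11, adjusted p = 9.9e-06). G6PC, the last step of glucose release, began lower in slick oil than in control at 48 hpf (170, 143 and 141 against 272, 246 and 286) and was level with it at 96 hpf (330, 350 and 335 against 340, 321 and 314), a difference in change of 0.88 ± 0.11 (adjusted p = 1.4e-09). CTSV, a lysosomal cysteine protease whose line is shared with another identifier, rose 2.81-fold in slick oil, from 1950, 2000 and 2102 to 5874, 6036 and 5083, and to 2826, 3046 and 3000 in control (difference 1.01 ± 0.07, adjusted p = 2e-21). F2, prothrombin, rose from 120, 113 and 76.7 to 163, 164 and 132 where control fell from a mean of 158 to 91.0 (difference 1.36 ± 0.15, adjusted p = 2.5e-12). In each of the 4 genes the slick stages did not overlap, which held for 5199 of the 8898 genes tested.

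KIT, the receptor of pigment and blood stem cells, rose in slick oil from 45, 50.4 and 51.1 to 86.1, 82.6 and 86.7 and not in control (difference 0.72 ± 0.21, adjusted p = 0.011). PPL, periplakin of the epidermal envelope, rose from 59, 53.4 and 63.9 to 226, 208 and 220 but to 372, 389 and 409 in control (difference -0.59 ± 0.16, adjusted p = 0.0081, and 0.054 without slick replicate 6 at 48 hpf). LCAT, which esterifies plasma cholesterol, fell 4.37-fold in slick oil, by less than in control (difference 0.89 ± 0.18, adjusted p = 8.6e-05).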
